A study of Rattus norvegicus with 2 samples.

Results

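Edn1, Edn3, Ednra and Ednrb encode peptides and receptors of the endothelin system. They were taken by symbol from the gene list that accompanies the counts, where each symbol names 1 row, and they are 4 of the 32623 genes counted. The 2 libraries hold single cells of the cochlear duct of Sprague-Dawley rats, 1 library at postnatal day 1 (P1) and 1 at postnatal day 7 (P7), with the tissue of several rats pooled in each by the Methods. No treatment or genotype is given for either age, and the study used these ages to follow the greater epithelial ridge, a transient epithelium of the young cochlea. Each value is therefore that of 1 library, no test between the ages was possible, and all intervals below are 95% intervals that cover counting error only, since no second library shows the spread between animals.

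Endothelins are short peptides that are cut out of larger precursors, first by proprotein convertases such as Furin and then by the endothelin converting enzyme Ece1. They act on a pair of G protein coupled receptors: Ednra prefers the peptide of Edn1, whereas Ednrb binds the peptides of all the ligand genes about equally. Edn1 is best known as the constrictor peptide of blood vessel endothelium and Ednra as its receptor on the contractile cells around vessels. Edn3 and Ednrb are best known from the neural crest, whose melanocytes and enteric neurons need them, and loss of either can cause pigment defects and deafness.

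The deposited matrices held 14068 barcodes at P1 and 14501 at P7, of which 12779 and 12581 were kept, with medians of 6565 and 6878 UMIs (unique molecular identifiers, each 1 counted transcript molecule). Of the 28569 barcodes, 60 were found in both libraries. The cell type in the labels is the greater epithelial ridge cell, but Epcam, a marker of epithelium, had a UMI in 4.94% of the kept cells at P1 and 4.55% at P7, and most cells carried markers of mesenchyme or glia. The kept cells fell into 23 clusters, called MC0 to MC22 here, which are not the study's numbers. The clusters were formed without the members and the listed marker genes, and were then joined into classes by their markers, with names that end in -like because no annotation was used. Of the 23 clusters, 15 drew over 90% of their cells from 1 library, so that age and library cannot be told apart within them. Some clusters stood outside the named classes: MC10, led by haemoglobin genes, and MC15 and MC20, where most cells were called doublets.

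The unit of level is CPM: how many of every 1000000 UMIs of a class or library were the gene's own. It serves to compare 1 gene between classes and not different genes with each other. By level, the 4 genes were highest in 4 different classes at P1. At P1, Edn1 was highest in endothelial-like cells, Edn3 in Gpc3-Vcan mesenchyme-like cells (fibroblast-like cells with the proteoglycan genes Gpc3 and Vcan), Ednra in pericyte-like cells and Ednrb in glia-like cells. At P7 the last 3 of these were the same, and Edn1 had too few UMIs to place. The order by share of UMIs was another one for Ednra. Gpc3-Vcan mesenchyme-like cells, which held most Edn3 UMIs, also held 30.1% of the Ednra UMIs at P1, against 14.4% in pericyte-like cells. For Edn3, Ednra and Ednrb, the leading class at each age was the same in 10 of 10 ways of clustering, filtering and scaling the cells.

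**Figure D1:**
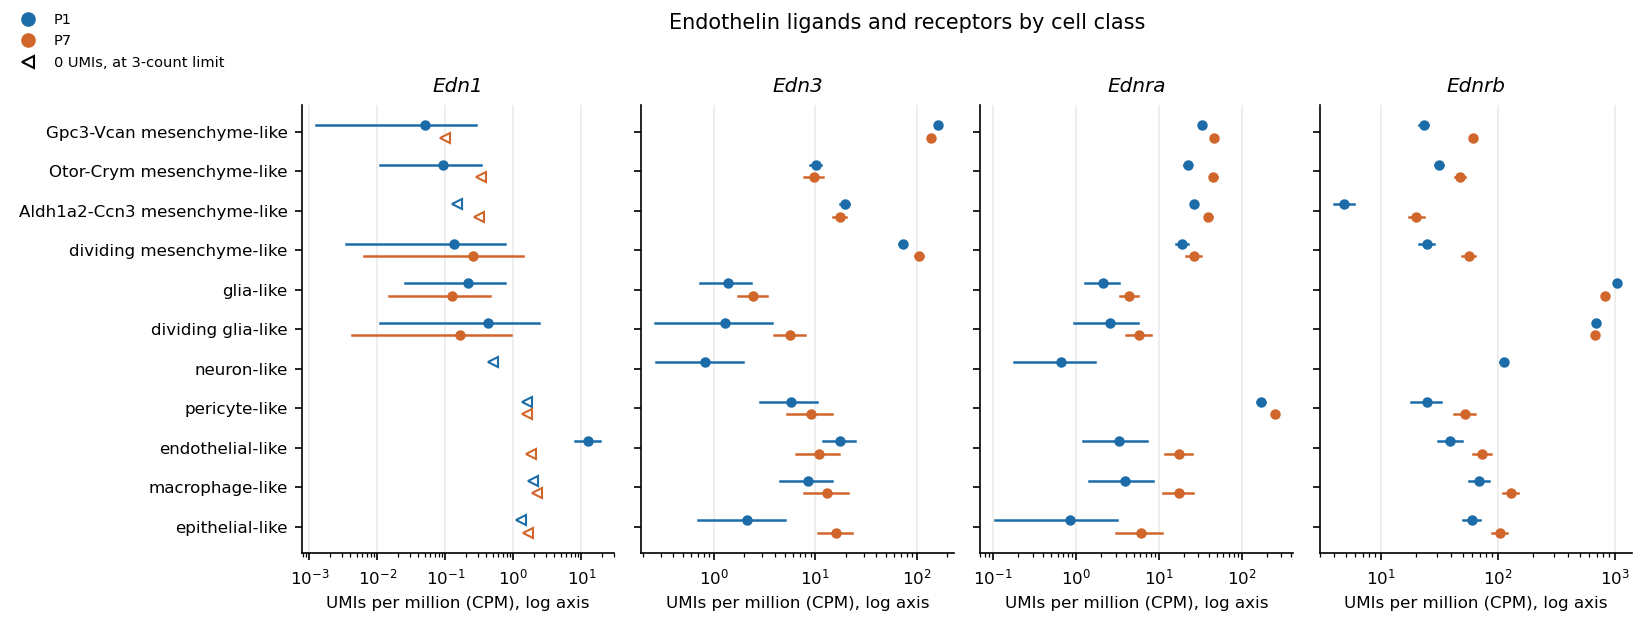
Level of each gene in each cell class, in CPM (log axis), at P1 and P7; bars are exact 95% Poisson intervals and open marks are the level that 3 UMIs would give where a class had none. Edn1 stands out in endothelial-like cells at P1 alone (12.6 CPM), Edn3 in Gpc3-Vcan mesenchyme-like cells (161 and 139 CPM), Ednra in pericyte-like cells (169.8 and 255 CPM) and Ednrb in glia-like cells (1038 and 820.4 CPM).

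Over all kept cells, Edn1 had 30 UMIs at P1 and 4 at P7, Edn3 had 4605 and 5426, Ednra had 2241 and 3386, and Ednrb had 15206 and 22787. In CPM, Edn3 was at 47.0 CPM at P1 and 58.3 at P7, a log2 ratio of 0.31 (0.25 to 0.37). Ednra was at 22.9 and 36.4 CPM, a log2 ratio of 0.67 (0.59 to 0.75). Ednrb was at 155 and 245 CPM, a log2 ratio of 0.66 (0.63 to 0.69). All 3 were thus higher in the P7 library, by less than 2-fold. Of the 4 genes, 3 reached 10 CPM and none of these was past 2-fold, beside 16.3% of the 8222 genes of at least 10 CPM in the higher library, whose median log2 ratio was 0.13. Edn1 lay below that limit, at 0.306 CPM at P1 and 0.0430 at P7, with a log2 ratio of -2.83 (-4.80 to -1.33).

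The cell classes were captured in different numbers at the 2 ages. Glia-like cells numbered 1782 of the 12779 kept cells at P1 and 3014 of the 12581 at P7, Gpc3-Vcan mesenchyme-like cells 2806 and 4157, and Otor-Crym mesenchyme-like cells (fibrocyte-like cells with Otor and Crym) 3275 and 977. When the P7 levels were weighted by the P1 composition, the log2 ratio was -0.062 for Edn3 and -0.048 for Ednrb, against 0.69 for Ednra. It covered the 12 groups with cells in both libraries, among them MC10 with 20 cells at P1. Groups found at P1 alone, such as neuron-like cells, were left out. Without the weighting, the ratios over the same 12 groups were 0.22 for Edn3, 0.63 for Ednrb and 0.57 for Ednra. This weighting was computed with the merged classes alone, and the part of the captured shares in the differences over all cells was not tested. With 1 library per age, the shares cannot be told apart from age.

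**Figure D2:**
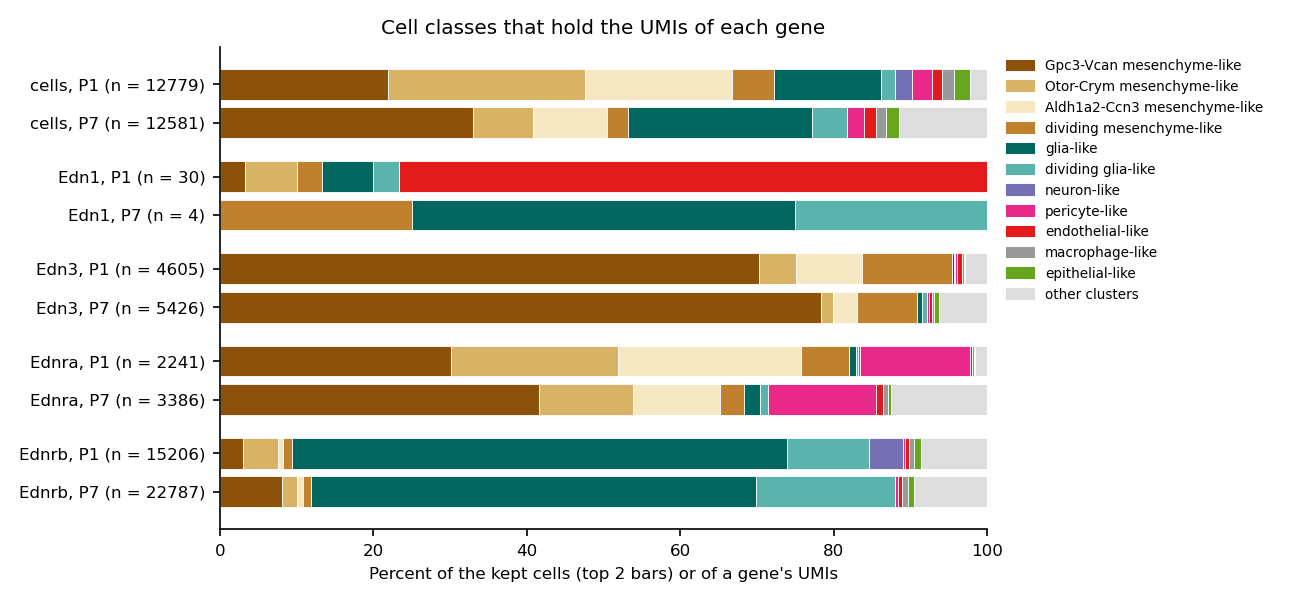
Share of the kept cells (top pair of bars) and of each gene's UMIs that each class held at P1 and P7, in percent. Endothelial-like cells, a small share of the cells, held 76.7% of the Edn1 UMIs at P1, Gpc3-Vcan mesenchyme-like cells 70.3% and 78.3% of the Edn3 UMIs, and glia-like cells 64.5% and 58.0% of the Ednrb UMIs, whereas the Ednra UMIs were spread over the mesenchyme-like classes.

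Edn1 (ENSRNOG00000014361) encodes the precursor of the endothelium's own constrictor peptide. Its promoter is shown because the gene was read mostly in 1 class and at 1 age. The sequence is RefSeq's for the GRCr8 build, chr17:22666788-22666937 on the minus strand, 5′ to 3′, and it covers the bases 250 to 101 before the annotated start. The counts themselves were made on another build, rn6. Capitals mark matches to motifs, searched on both strands in the 250 bases before the start.
Edn1 promoter: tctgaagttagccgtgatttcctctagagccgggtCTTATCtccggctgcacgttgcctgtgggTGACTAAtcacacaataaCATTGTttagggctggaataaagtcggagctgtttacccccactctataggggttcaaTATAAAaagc
From left to right, CTTATC is the reverse complement of GATAAG, a motif of GATA factors. Next, TGACTAA is a motif of AP-1, and CATTGT is the reverse complement of ACAATG, a motif of SOX factors. The last, TATAAA, is that of a TATA box. Of 33469 rat promoters of the same length, 6.18% held GATAAG on either strand and 5.92% held TGACTAA or its variant TGACTCA. The SOX motif or its variant ACAAAG was held by 25.3%, and the TATA box by 12.9%. The motifs do not overlap each other here. A match is a description of letters and shows no binding. Promoters were found for 3 of the 4 genes, and Edn3 had no entry.

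At P1, 23 of the 30 Edn1 UMIs (76.7%) lay in the 167 endothelial-like cells, MC17. They came from 13 cells (7.78%, 4.21 to 12.9), none of them called a doublet, with at most 4 UMIs in a cell. The level was 12.6 CPM (7.98 to 18.9), 173-fold (71.8 to 477) that of all other cells of the library. Of genes of at least 10 CPM, 5.76% were 4-fold or more higher in that class at P1, and 5.85% at P7. The other 7 UMIs were single UMIs in 7 cells: 2 glia-like, 2 Otor-Crym mesenchyme-like, 1 Gpc3-Vcan mesenchyme-like, 1 dividing mesenchyme-like and 1 dividing glia-like. Pericyte-like, macrophage-like, epithelial-like and neuron-like cells had none at P1.

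At P7 the same cluster held 188 cells and 0 Edn1 UMIs, so that 3 UMIs, the level a count of 0 allows, would be 1.82 CPM. Set against the P1 level of 12.6 CPM in endothelial-like cells, that floor was 6.92-fold lower. With the counting error of both libraries, the interval of the log2 ratio ended at -2.37, which allows a smaller difference than that. Of the 7770 genes of at least 10 CPM in the higher library, 5.98% were 2-fold or more lower at P7 in this class. The 4 Edn1 UMIs of the P7 library lay in 2 glia-like cells, 1 dividing glia-like cell and 1 dividing mesenchyme-like cell, and the last of these was called a doublet. The median depth of the endothelial-like cells was 9076 UMIs at P1 and 6990 at P7. When each cell was thinned to 2000 UMIs, Edn1 was seen in 4 of 149 cells at P1 (2.68%, 0.736 to 6.73) and in 0 of 156 at P7 (0 to 2.34), so that at this depth the difference in shares was not detectable.

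The other genes of these cells were seen through 12 endothelial markers. Cdh5, the cadherin of endothelial junctions, was at 608 and 622 CPM. Kdr and Flt1, receptors of vascular growth factor, were at 385 and 354 CPM and at 380.3 and 336 CPM. Plvap, a protein of the openings of fenestrated vessels, was at 1230.5 and 1553 CPM. Larger differences were seen for Egfl7, at 436 and 947 CPM, and Slco1a4, a transporter of barrier vessels, at 39.9 and 169.8 CPM. Of the 12, Robo4 had 3 UMIs at P1 and 0 at P7, too few to compare, and the other 11 were read at both ages.

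Barcodes outside the limits on genes and mitochondrial share were examined for Edn1 as well. At P1, 11 of the 1289 such barcodes held 14 Edn1 UMIs. Of these, 10 were over the limit of 5000 genes and 9 held at least 3 of the 12 endothelial markers. At P7, 0 of 1920 such barcodes held an Edn1 UMI. Over all barcodes with at least 3 endothelial markers, those outside the limits numbered 109 at P1, 99 of them over the gene limit, with 12 Edn1 UMIs or 2.61 CPM, and 86 at P7, 39 of them over it, with 0 UMIs, where 3 would be 1.80 CPM. Within the limits, 517 such barcodes at P1 held 23 UMIs (3.85 CPM) and 727 at P7 held 0, where 3 would be 0.412 CPM.

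Across the 15 clusters with at least 50 cells at P1, the genes whose log2(CPM + 5) followed that of Edn1 most closely were Cdh5 (Pearson r = 0.97), Kdr (0.96) and Slc2a1 (0.96), a glucose transporter. These clusters share 1 library, and 23 of the 30 UMIs lay in 1 of them, so that the likeness rests on that cluster. At P7 the 4 UMIs left no pattern to follow.

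Edn3 (ENSRNOG00000007477) encodes the ligand of neural crest cells. The study gave it, beside Vcan and Gpc3, among the genes of clusters of its own on these libraries, so that its place beside these genes is not independent evidence. Among those clusters is one that the study considered a subtype of greater epithelial ridge cells. The name mesenchyme-like is given here by markers and is not the study's. In the Gpc3-Vcan mesenchyme-like class it was at 161 CPM (156 to 167) at P1 and 139 (135 to 144) at P7, with a UMI in 49.1% and 45.5% of the cells and up to 21 in a cell at either age. This was 9.18-fold (8.61 to 9.79) the level of all other cells at P1 and 7.43-fold (6.96 to 7.93) at P7, where 1.18% and 1.30% of genes were 4-fold or more higher. Thinned to 2000 UMIs, 23.3% of these cells held Edn3 at P1 and 20.5% at P7, against 0.289% and 0.317% of the glia-like cells. The median depths before thinning were 6730 and 7006 UMIs in the mesenchyme-like class and 4279 and 4561 in the glia-like one.

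Within that class the level differed by cluster. At P1 it was 219 CPM (209 to 229) in MC7, which is led by Col6a1, Edn3 itself, Igfbp6 and Mfap5, and 116 (109 to 122) in MC6, led by Penk, Pnoc and Col8a1. At P7 it was 224 CPM (216 to 232) in MC4, led by Col15a1, Lepr and Dcn, and 70.1 (66.1 to 74.2) in MC3, led by Dlx5, Sfrp4 and Myoc. The highest cluster of each age was thus at about the same level, and the intervals of MC7 and MC4 overlap. Different clusters held the class at the 2 ages, MC6 and MC7 at P1 and MC3 and MC4 at P7.

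The log2 ratio of the whole class, -0.21 (-0.27 to -0.14), rested on where MC3 was put. In 5 other clusterings between 0.177% and 20.2% of the MC3 cells stayed in the class, and the log2 ratio was then above 0, from 0.12 to 0.63. When the libraries were integrated before clustering, 3 integrated clusters of this mesenchyme were lower at P7, from 291 to 222 CPM, from 210 to 159 and from 135 to 90.5. Another integrated cluster was left unnamed, though all 9 markers of this mesenchyme were detected in it. It held 1503 cells at P7 and was at 107 and 109 CPM, a log2 ratio of 0.030 (-0.22 to 0.29). The direction of Edn3 over the whole class between the ages therefore depended on the clustering. With integrated libraries the class was the 3 named clusters, and its log2 ratio was 0.12. In each of the 3 the interval of the ratio lay below 0. The cluster at 291 and 222 CPM held 83 cells at P1 and 1430 at P7. The cluster at 210 and 159 CPM held 1110 and 342, and that at 135 and 90.5 CPM held 1187 and 350. The sign of the class ratio was thus not that of its clusters, and the part of the cluster shares was not tested.

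Dividing mesenchyme-like cells (MC9, with Top2a and Mki67) were the next highest class, at 72.4 CPM at P1 and 105 at P7, a log2 ratio of 0.54 (0.36 to 0.73). Aldh1a2-Ccn3 mesenchyme-like cells (MC2 at P1, MC8 at P7 and MC21), which carry the retinoic acid enzyme gene Aldh1a2, followed at 19.6 and 17.4 CPM. At P1 they did not differ beyond counting error from endothelial-like cells at 17.5 CPM. Otor-Crym mesenchyme-like cells (MC0 at P1, MC11 at P7) were at 10.1 and 9.63 CPM, and neighbours below them in the order, macrophage-like and pericyte-like cells, did not differ beyond counting error at P1. Glia-like cells were lowest at P7, at 2.42 CPM, and at 1.38 CPM at P1. Neuron-like cells (MC19), all from P1 in the merged clusters, had 5 UMIs (0.826 CPM), and the integrated neuron-like cluster held 386 cells at P1 and 34 at P7, with 9 and 3 UMIs. The ligand was thus concentrated in a part of the mesenchyme and was low in glia-like and neuron-like cells.

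Epithelial-like cells (MC14) were the class with the largest Edn3 ratio. They held 5 UMIs in 277 cells at P1 (2.14 CPM) and 29 UMIs in 215 cells at P7 (15.9 CPM), a log2 ratio of 2.89 (1.50 to 4.62). The P7 UMIs came from 13 cells, with up to 9 in 1 cell. Thinned, 2 of 250 cells held it at P1 and 3 of 144 (2.08%) at P7, with overlapping intervals, and the interval of the P7 level, 10.6 to 22.8 CPM, overlapped those of MC10, endothelial-like and macrophage-like cells. The summed Gpc3-Vcan markers in epithelial-like cells were also higher at P7, at 364 and 1155 CPM. For every 100 UMIs of that list these cells had 0.590 Edn3 UMIs at P1 and 1.38 at P7, against 2.89 and 1.57 in the Gpc3-Vcan class. The part of free mesenchymal RNA in the difference was not tested.

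The genes that followed Edn3 most closely over clusters were Lepr, the leptin receptor (r = 0.93 over 15 clusters at P1, 0.97 over 17 at P7), and Dcn, the proteoglycan decorin (0.91 and 0.96). The next were Igfbp6 at P1 (0.91) and LOC100911545 at P7 (0.95). Lepr and Dcn were among the closest 3 at both ages, which describes clusters of the same 2 libraries and not independent samples.

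Ednra (ENSRNOG00000012721) encodes the receptor of contractile vessel cells. Pericyte-like cells (MC13, with Rgs5, Kcnj8 and Acta2) had 323 UMIs in 330 cells at P1 and 480 UMIs in 285 cells at P7. Their level was 169.8 CPM (152 to 189) at P1 and 255 (233 to 279) at P7, a log2 ratio of 0.59 (0.38 to 0.79). The receptor was read in 55.5% of these cells at P1 and 73.7% at P7, and after thinning in 25.5% and 38.1%. All other cells together were at 19.96 CPM at P1 and 31.9 at P7, and the level was 8.51-fold (7.54 to 9.58) theirs at P1. In this class 3.73% of genes at P1 and 3.55% at P7 were 4-fold or more higher than in the other cells. It was 5.06-fold (4.42 to 5.78) the next class at P1 and 5.52-fold (4.97 to 6.13) at P7.

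Because pericyte-like cells were few, they held only 14.4% of the Ednra UMIs at P1 and 14.2% at P7. Gpc3-Vcan mesenchyme-like cells held 30.1% and 41.6%, at 33.6 CPM (MC6 and MC7) and 46.2 CPM (MC3 and MC4). MC3 alone held 28.2% at P7, and most MC3 cells left the class in 5 other clusterings. At P1 the next classes were Aldh1a2-Ccn3 mesenchyme-like cells at 26.5 CPM, Otor-Crym mesenchyme-like cells at 22.3 and dividing mesenchyme-like cells at 19.1, and the last pair did not differ beyond counting error. At P7 these classes were at 39.7, 45.4 and 26.4 CPM, and Gpc3-Vcan and Otor-Crym mesenchyme-like cells did not differ. Below the mesenchyme, glia-like cells were at 2.12 and 4.41 CPM, neuron-like cells at 0.660 CPM at P1, and epithelial-like cells at 0.858 and 6.03 CPM. Ednra was thus a receptor of pericyte-like and mesenchyme-like cells in both libraries.

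Within the Gpc3-Vcan class Ednra was higher where Edn3 was lower. At P1 MC6 was at 42.3 CPM of Ednra and MC7 at 22.7, and at P7 MC3 was at 57.3 and MC4 at 32.5, the reverse of the order of Edn3 at each age. In cells thinned to 2000 UMIs, Ednra was seen in 4.79% (3.28 to 6.73) of the Gpc3-Vcan mesenchyme-like cells with Edn3 and 6.48% (5.47 to 7.61) of those without it at P1, and in 6.84% (5.22 to 8.77) and 9.37% (8.38 to 10.4) at P7. The intervals overlap at both ages, only narrowly at P7, and overlap alone does not place a difference within counting error. No interval of the difference was computed, and the class mixes clusters with different levels of both genes.

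Ednra had a log2 ratio above 0 in all 10 classes with at least 50 cells at both ages, and the interval lay above 0 in 9 of them. The median over the classes was 1.04, and 6 classes were past 2-fold. Among genes of at least 10 CPM, the share 2-fold or more higher at P7 was 12.3% in Otor-Crym mesenchyme-like cells, 11.7% in endothelial-like, 16.0% in macrophage-like, 14.4% in epithelial-like, 9.85% in glia-like and 8.96% in dividing glia-like cells, which are those 6 classes. In Otor-Crym mesenchyme-like cells the ratio was 1.03 (0.83 to 1.22) on 489 and 415 UMIs. The other 5 rested on low counts, such as 6 and 29 UMIs in endothelial-like cells (3.28 and 17.6 CPM) and 6 and 24 in macrophage-like cells (3.94 and 17.5 CPM). In glia-like, dividing glia-like and epithelial-like cells Ednra stayed below 10 CPM and so outside the genes counted for those shares. When the libraries were integrated, Ednra was higher at P7 beyond counting error in 12 of 16 clusters and lower in 0. The difference within classes came with one over all cells, and free RNA of pericyte-like or mesenchyme-like cells as a part of it was not tested.

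**Figure D3:**
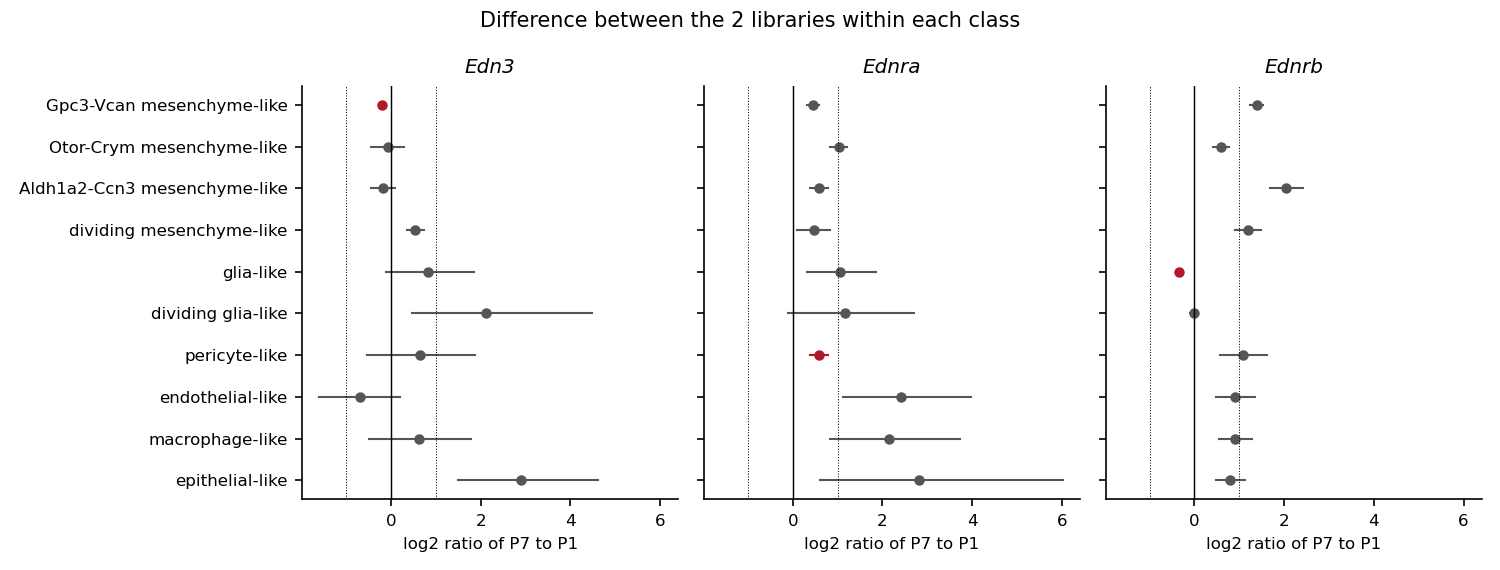
Log2 ratio of the P7 to the P1 level of Edn3, Ednra and Ednrb within each class with at least 50 cells at both ages; bars are exact 95% intervals, dotted lines mark 2-fold either way, and the class with the highest level of each gene is set apart by colour. Ednra lies right of 0 in all 10 classes, Ednrb left of 0 in glia-like cells (-0.34) and right of it in 8 classes, and Edn3 is furthest right in epithelial-like cells (2.89).

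Over clusters at P1, Pcdh18 (r = 0.96), Pde3a (0.95) and Pde5a (0.94), the last pair being phosphodiesterases of contractile cells, followed Ednra most closely. At P7 they were Cald1 (0.90), a protein of the contractile apparatus, Tbc1d2b (0.89) and Bgn (0.88), a matrix proteoglycan. No gene was among the closest 3 at both ages.

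Ednrb (ENSRNOG00000010997) encodes the receptor that neural crest cells use. Its promoter is shown beside that of Edn1 because Ednrb was the most widely read of the 4 genes and was concentrated in glia, a neural crest lineage. The 250 bases before the RefSeq start, GRCr8 chr15:87086766-87087015 on the minus strand, 5′ to 3′, held none of the letters of the 4 motifs searched, so that no capitals appear.
Ednrb promoter: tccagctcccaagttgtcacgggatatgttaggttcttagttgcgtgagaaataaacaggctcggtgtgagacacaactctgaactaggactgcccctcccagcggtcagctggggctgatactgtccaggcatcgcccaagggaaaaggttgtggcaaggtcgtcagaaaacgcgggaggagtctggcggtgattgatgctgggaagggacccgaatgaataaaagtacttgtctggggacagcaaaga
The absence of these letters in this window says nothing on the factors that bind them.

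In glia-like cells (MC5 at P1, MC1 at P7, MC18 at both) Ednrb was at 1038 CPM (1018 to 1059) at P1 and 820.4 (806 to 835) at P7. It was read in 89.8% and 84.3% of these cells, with 6.12 and 5.20 UMIs in a cell that had any. Thinned to 2000 UMIs the shares were 77.7% and 70.7%. The level was 17.0-fold (16.5 to 17.6) that of all other cells at P1 and 6.60-fold (6.42 to 6.77) at P7, where 3.49% and 3.19% of genes were 4-fold or more higher. Together with dividing glia-like cells (MC12), at 693 and 683 CPM, this class held most of the UMIs: 64.5% and 10.6% at P1, and 58.0% and 18.1% at P7.

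The log2 ratio of Ednrb within glia-like cells was -0.34 (-0.38 to -0.30), while dividing glia-like cells were at -0.022 (-0.11 to 0.062). The cells compared were not alike: MC5, at 1108 CPM at P1, is led by Scn7a, Gfra3 and Ptprz1, and MC1, at 835 CPM at P7, by genes that include Mbp, Prx and Mag, which act in myelin. In MC18, which both libraries filled, Ednrb was at 649.6 CPM at P1 (603 to 699) and 590.5 at P7 (545 to 639), with overlapping intervals. In the integrated clusters led by glial genes Ednrb was at 1141 CPM at P1 and 1069 at P7, at 728 and 814, at 772 and 773, and at 690.2 and 662 in the dividing one. The interval of the log2 ratio held 0 in all of these but the second, where it was 0.16 (0.0017 to 0.33). Which glial cells were captured cannot be told apart from age here, and glia-like cells were the highest class at both ages.

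Neuron-like cells (MC19, at P1) had Ednrb in 70.5% of 288 cells at 112 CPM. Their median depth was 21170 UMIs, and thinned to 2000 the share was 17.7%. Their summed glial markers were at 1130 CPM, with 9.905 Ednrb UMIs for every 100 of them, against 16.1 in glia-like cells. Macrophage-like cells were at 68.9 CPM at P1 and 129 at P7, epithelial-like cells at 60.0 and 104, endothelial-like cells at 39.4 and 74.0, and pericyte-like cells at 24.7 and 52.0. In the mesenchyme, Otor-Crym cells were at 31.5 and 47.3 CPM, dividing cells at 24.6 and 56.5, Gpc3-Vcan cells at 23.2 and 60.8, and Aldh1a2-Ccn3 cells at 4.87 and 20.1. From endothelial-like cells down to Gpc3-Vcan mesenchyme-like cells at P1, no class differed from the next one in the order beyond counting error, and Aldh1a2-Ccn3 mesenchyme-like cells were lowest at both ages.

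Outside glia the level of Ednrb was higher at P7 in each of the 8 named classes that the merged clusters gave at both ages, with the interval above 0 in all 8. The summed glial markers were also higher at P7 in all 8, for example at 190.3 and 803 CPM in pericyte-like cells, 158 and 625 in endothelial-like, 423 and 1155 in macrophage-like and 117 and 294 in Aldh1a2-Ccn3 mesenchyme-like cells, and their part in the difference was not tested. It was past 2-fold in 4 of them: Aldh1a2-Ccn3 mesenchyme-like (log2 2.05, 1.69 to 2.41, beside 10.7% of genes higher), Gpc3-Vcan mesenchyme-like (1.39, beside 10.6%), dividing mesenchyme-like (2.30-fold, beside 9.32%) and pericyte-like cells (1.07, beside 9.12%). Within the Gpc3-Vcan class the level at P7 was 86.5 CPM in MC3, with a UMI in 34.5% of the cells, and 29.7 CPM in MC4, with a UMI in 16.1%. With integrated libraries Ednrb was higher at P7 beyond counting error in 12 of 19 clusters and lower in 2. These were a doublet-rich cluster, at 499 and 377 CPM, and an Otor-Crym mesenchyme-like cluster, at 56.7 CPM in 846 cells and 46.6 in 1996, a log2 ratio of -0.28 (-0.46 to -0.097). In MC0, the merged cluster that holds most of that class at P1, the ratio was -0.060 (-0.78 to 0.58), so that the higher level of the Otor-Crym class depended on the clusters compared.

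RNA set free from glia can reach other droplets, and the 13 glial markers show how far it could. At P1, glia-like cells had 16.1 Ednrb UMIs for every 100 UMIs of the glial list, and the ratio was 16.3 in macrophage-like and 15.3 in Otor-Crym mesenchyme-like cells. It was lower in pericyte-like cells, at 13.0, and epithelial-like cells, at 9.84. By these ratios of whole classes alone, the Ednrb of those 4 classes, and that of neuron-like cells, cannot be told apart from free glial RNA. The UMIs were not spread evenly over the cells, however. At P1, Otor-Crym mesenchyme-like cells had up to 24 Ednrb UMIs in a cell, and in MC11 8 of 11 cells held 57. Of the 140 UMIs in epithelial-like cells at P1, 52 lay in 8 cells with pigment genes, described below. The ratio was 24.6 in Gpc3-Vcan mesenchyme-like cells, 24.9 in endothelial-like cells and 4.15 in Aldh1a2-Ccn3 mesenchyme-like ones, below that of glia. At P7, glia-like cells were at 4.15, with the summed glial list at 19746 CPM against 6459.6 at P1, macrophage-like cells at 11.2, pericyte-like cells at 6.48 and Gpc3-Vcan mesenchyme-like cells at 20.05. The summed glial list was at 94.3 CPM in the Gpc3-Vcan class at P1 and 303 CPM at P7, along with the higher Ednrb, and the part of free RNA in that difference was not tested.

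Melanocytes of the lateral wall are known to depend on Ednrb, and no cluster of them was found. Cells with at least 3 of the 6 pigment genes Tyr, Tyrp1, Pmel, Mlana, Slc45a2 and Trpm1 numbered 8 at P1 and 6 at P7. At P1 all 8 lay in the epithelial-like class, and 6 of them had Ednrb, with 52 UMIs or 1103 CPM (824 to 1446). At P7 all 6 had Ednrb, with 57 UMIs or 665 CPM (503 to 861), and 3 of them lay in the epithelial-like class. The others were 1 glia-like, 1 dividing mesenchyme-like and 1 Otor-Crym mesenchyme-like cell. Without its pigment cells the epithelial-like class was at 38.5 CPM of Ednrb at P1 and 97.1 at P7, in place of 60.0 and 104. A handful of pigment cells were thus at glial levels of Ednrb, on few UMIs.

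The genes closest to Ednrb over clusters were Egfl8 (r = 0.97), Rxrg (0.97) and Ubl3 (0.97) at P1 and Sostdc1 (0.97), Rxrg (0.97) and Cdh19 (0.97) at P7, where Egfl8 and Cdh19 are also on the glial marker list. Rxrg, a retinoid receptor gene, was among the closest 3 at both ages. Between the members, Edn3 and Ednrb had r = -0.47 at each age, Ednra and Ednrb -0.59 and -0.62, and Edn3 and Ednra 0.46 and 0.33. The ligand Edn3 and its receptor Ednrb were therefore highest in different clusters of both libraries. In the Gpc3-Vcan class the thinned share of cells with Ednrb was 4.48% with Edn3 and 4.18% without at P1, and 8.64% and 10.0% at P7, with overlapping intervals.

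**Figure D4:**
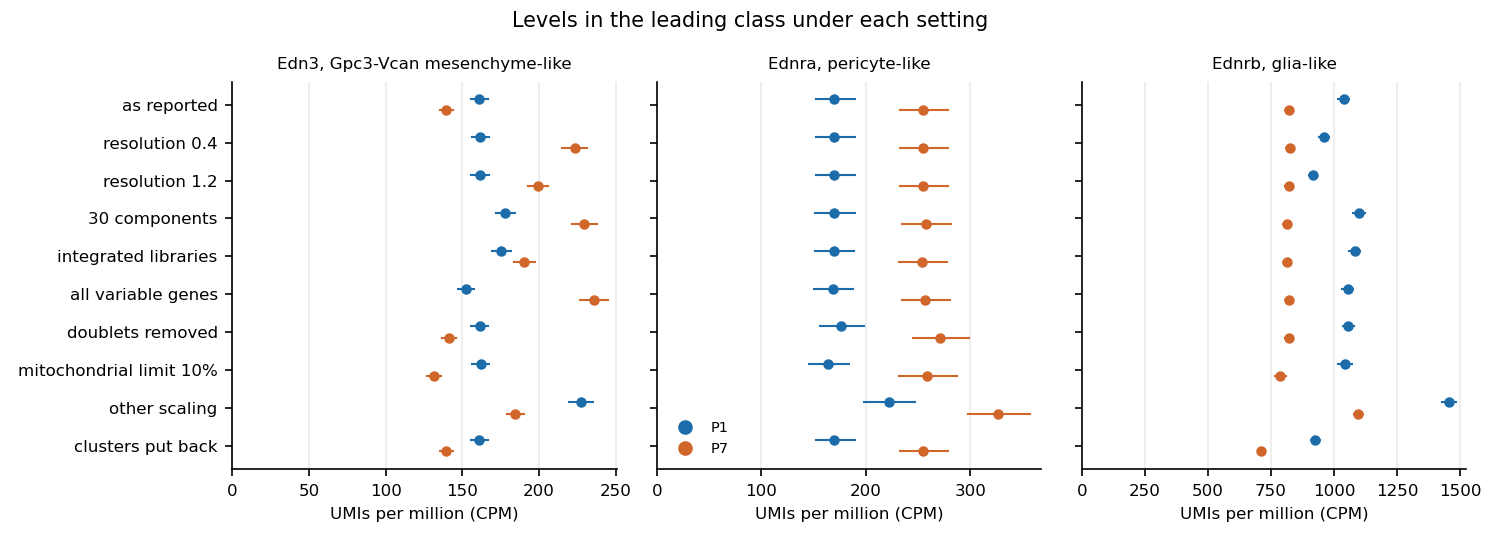
Level (CPM) of Edn3 in Gpc3-Vcan mesenchyme-like cells, of Ednra in pericyte-like cells and of Ednrb in glia-like cells, at P1 and P7, under each way of clustering, filtering and scaling the cells, with exact 95% Poisson intervals as bars. Ednra is higher at P7 and Ednrb lower at P7 under each, whereas Edn3 changes its order: 161 and 139 CPM in the values reported, and for example 152 and 236 CPM when all variable genes were used.

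A list of 25 other genes of the pathway was followed as well: the remaining ligand, the enzymes that cut and degrade the peptides, and the G proteins, phospholipases and arrestins of the receptors. Of these, 24 had a UMI in both libraries and 16 reached 10 CPM. Those 16 split into 10 higher at P7 and 6 lower, and of the 8222 genes of at least 10 CPM 58.9% were higher at P7. The median log2 ratio of the 16 was 0.12, beside 0.13 over all 8222 genes. Of those 16, 1 was past 2-fold higher, beside 9.74% of all genes of at least 10 CPM, and 2 were past 2-fold lower, beside 6.57%. Edn2, the remaining ligand gene, had 0 UMIs in both libraries.

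The gene past 2-fold upwards was Ece1, whose enzyme makes the final cut of the precursors. It was at 20.1 CPM at P1 and 41.4 at P7, a log2 ratio of 1.04 (0.97 to 1.12). It was highest in endothelial-like cells, at 93.6 CPM (80.1 to 109) at P1 and 113 (97.2 to 130) at P7, the class that held Edn1 at P1. In Gpc3-Vcan mesenchyme-like cells, the class that held Edn3, it was at 32.8 CPM at P1 and 67.3 at P7. By cluster, Ece1 was at 48.0 CPM in MC7 and 20.6 in MC6 at P1, and at 108 in MC4 and 34.6 in MC3 at P7, the same order as Edn3 at each age. The class level at P7 thus depended on whether MC3 was put in the class. Dividing mesenchyme-like cells were at 28.4 and 62.8 CPM. With integrated libraries Ece1 was higher at P7 beyond counting error in 12 of 19 clusters and lower in 0.

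**Figure D5:**
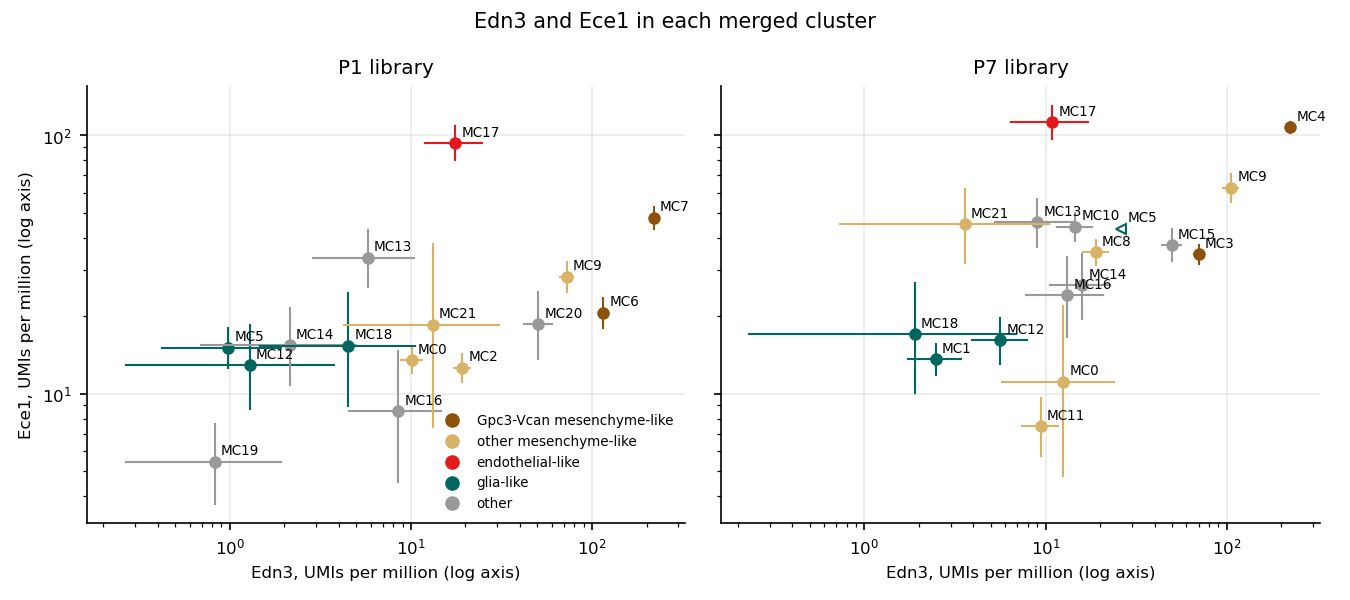
Level of Ece1 against that of Edn3 (both CPM, log axes) in each merged cluster with at least 50 cells, at P1 (left) and P7 (right), with clusters coloured by class and exact 95% Poisson intervals as bars. The cluster furthest right at each age is a Gpc3-Vcan mesenchyme-like one, and of that class MC7 at P1 (219 CPM of Edn3, 48.0 of Ece1) and MC4 at P7 (224 and 108) are highest in both genes, while the endothelial-like cluster is high in Ece1 alone.

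Furin, which makes the first cut, was highest in pericyte-like cells, at 146 and 253 CPM, and over all cells was at 54.6 and 86.8 CPM (log2 0.67). Pcsk1, a convertase of secretory granules, was highest in glia-like cells, at 144 CPM at P1 and 41.0 at P7. Mme is the membrane peptidase neprilysin that breaks down endothelins. It was one of the 2 pathway genes of at least 10 CPM past 2-fold downwards, at 166 and 81.5 CPM (log2 -1.03). It was highest in Gpc3-Vcan mesenchyme-like cells, at 382 and 154 CPM. The class with the most Edn3 thus held also the most of this peptidase, at a lower level at P7.

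Among pathway genes of at least 10 CPM, the other past 2-fold downwards was Gnas, the Gs alpha subunit, at 13.2 and 6.22 CPM (log2 -1.08). Its locus holds overlapping transcripts, so that its count is uncertain. Ctsa, a carboxypeptidase that can inactivate the peptide of Edn1, was highest in macrophage-like cells, at 838 and 1061 CPM. Of the 14 genes that couple the receptors to the cell, 8 reached 10 CPM, and the most abundant by UMIs, Gnai2, was at 534 and 540 CPM over all cells and highest in endothelial-like cells. The median log2 ratio of these 8 was 0.019, beside 0.13 over all genes of at least 10 CPM. The coupling genes that stayed below 10 CPM in both libraries all had ratios below 0. They were Gnaq (log2 -1.17), Gnai1 (-1.17), Plcb1 (-0.84), Plcb2 (-1.29, on 18 and 7 UMIs), Plcb3 (-1.48) and Arrb1 (-0.55). Staying below the limit in both libraries leaves out genes that rose past it, such as Gna11 (7.62 and 10.2 CPM) and Arrb2 (9.33 and 10.8 CPM). No share over all genes of that level was computed, so their shared direction is not a result about coupling genes.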

How the data were processed

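Cochlear duct cells of rats were profiled in 2 droplet libraries (10x Genomics, 3′ kit, version 3), 1 per age. By the Methods and the file headers, the authors aligned reads to rn6 and counted UMIs with Cell Ranger 3.1.0, which also called the cells, and used Seurat 3.1.1. The deposited values are UMI counts per gene and barcode, without normalization. The P1 library totalled 114285848 UMIs and the P7 library 101264868, so that counting intervals are narrow for Ednrb and wide for Edn1.

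Following the limits of the Methods, a barcode was kept if its genes numbered over 500 and under 5000, its UMIs 500 or more, and its mitochondrial share was under 25%. Both libraries were clustered together with Seurat 5.3.0 in R 4.3.3 (Matrix 1.6.5) on 10 principal components of 1848 of 2000 variable genes, without the 152 listed ones, at a resolution of 0.8. A cluster was named from 18 marker lists (156 of 161 genes found) where at least 3 markers were in at least 10% of its cells. Clusters over 50% doublets were left unnamed. So were those whose 10 leading genes held more markers of another class than of their own. This rule was settled after the clusters were seen. MC3 passed it with all 9 Gpc3-Vcan markers detected but 0 of them among its 10 leading genes, and the list highest in it was that of cartilage and bone. Doublets were called with Scrublet (scanpy 1.11.5) in 4.87% and 6.16% of the cells and removed in an alternative only. UMIs were summed per class and library as CPM with exact Poisson intervals, ratios had exact binomial intervals, and shares of cells had Clopper-Pearson intervals. Cells of fewer than 2000 UMIs were left out of thinned shares (252 at P1, 711 at P7). The ratios and their intervals were tested on simulated data. Python 3.11.15, numpy 2.4.6, scipy 1.17.1, pandas 2.3.3 and matplotlib 3.10.9 were used. The named genes were the 4 members, the 25 pathway genes and, per member and library, the 3 genes with the highest r over clusters; the members and lists were chosen with earlier results of these data known. Alternatives changed the filters, scaling, clustering and composition.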

Additional observations from a re-analysis of the deposited data

Results flagged for a closer look

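Edn3 differed between the ages in opposite directions in 2 classes: the log2 ratio of P7 to P1 was 2.89 in epithelial-like cells, on 5 and 29 UMIs, and -0.21 in Gpc3-Vcan mesenchyme-like cells, where the sign changed with the clustering. Ednrb did so as well, with a log2 ratio of 2.05 in Aldh1a2-Ccn3 mesenchyme-like cells and -0.34 in glia-like cells. Neither difference between classes was tested, since each age has 1 library, and each pair was the highest and the lowest of the classes with intervals off 0. In epithelial-like cells the summed Gpc3-Vcan markers were also higher at P7. Edn1 was also read outside the cells used for the comparisons, with 14 UMIs in the barcodes outside the limits at P1 and none in those at P7.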

How the results depend on the processing

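Under the alternatives, 66 values stayed within the counting interval, 37 moved out of it and 7 changed sign. Over all cells, the log2 ratio of Edn3 was 0.39 with all deposited barcodes, 0.24 with a mitochondrial limit of 10% and 0.23 when mitochondrial, ribosomal protein and haemoglobin genes were left out of the scaling, and -0.062 with the composition held at P1. That of Ednrb was 0.70 without doublets, 0.57 with the other scaling and -0.048 with the composition held at P1, and that of Ednra was 0.59 with the other scaling.

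The log2 ratio of Edn3 within Gpc3-Vcan mesenchyme-like cells changed sign in all 5 other clusterings: 0.47 at a resolution of 0.4, 0.30 at 1.2, 0.37 with 30 principal components, 0.12 with integrated libraries and 0.63 with all variable genes. The P7 level was then 223, 199, 229.5, 190.5 and 236 CPM, and the P1 level moved to 178, 175 and 152 CPM in the last 3. With the mitochondrial limit of 10% the P7 level was 131 CPM and the ratio -0.30, and with the other scaling the levels were 228 and 184 CPM and the ratio -0.30. In 5 other clusterings most MC3 cells left the class. With integrated libraries each of the 3 clusters of the class was lower at P7, though the class ratio was above 0.

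Ednrb in glia-like cells stayed lower at P7 under each alternative run. In the same 5 clusterings the P1 level was 960.5, 917, 1099 and 1083 CPM, with no move in the last, and the ratio -0.22, -0.16, -0.44 and -0.41. With the mitochondrial limit of 10% the P7 level was 787 CPM and the ratio -0.41, and with the other scaling 1456 and 1097 CPM and -0.41. With the clusters that had been left out put back, an alternative chosen after seeing the data, the levels were 926 and 709 CPM and the ratio -0.39. Ednra in pericyte-like cells moved with the scaling alone, to 222 and 327 CPM. Edn1 in endothelial-like cells at P1 did not move.

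No paired analysis was possible because the labels carry no replicate numbers and each age has 1 library. With 1 library per age, library, litter, dissociation and age cannot be told apart, and intervals show counting error only. The depth did not allow a share of Edn1 cells to be compared between the ages.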
